A study of Mus musculus with 4 samples.

Results

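Sp6 occupancy was described at the genes of the integrin, cadherin and non-clustered protocadherin families in mouse molars. The members were found by name. They are the genes in either deposited gene table whose symbol begins with Itga or Itgb, with Cdh and a digit, or with Pcdh and a digit. Itga6, Itgb4, Itgb6, Cdh1, Cdh2 and Cdh3 were left out. The rule gave 20 genes with at least 1 Sp6 interval, out of 5566 gene names in the tables. The same name rule gave 60 protein-coding genes in RefSeq, so 40 family members had no listed interval. Although the set is named for type II cadherins, its Cdh names also take in type I cadherins and unlike cadherins such as Cdh13 and Cdh23. Of its 20 Cdh genes, 13 are type II.

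Chromatin immunoprecipitation with sequencing was done on dental epithelium and dental mesenchyme, taken apart from 30 newborn molars of the mouse strain C57BL/6 at postnatal day 1. The labels give no allele or treatment for either tissue, and the number of animals is not given. Each tissue had 1 library made with an in-house antibody to Sp6 (epiprofin), a zinc-finger transcription factor needed for tooth formation, and 1 input library without antibody. An interval is a region that the authors' peak caller found in 1 library. Its peak value is the density of fragments in the bin where it is highest, and a percentile here is the share of annotated intervals of the same library with a lower peak value plus 50% of those with the same value. The epithelium had 3811 intervals, of which 2381 were annotated, that is, listed for a gene. The mesenchyme had 11436, of which 7211 were annotated. The inputs had 17 and 24 intervals. Read totals are not given, so depth is unknown, and peak values are not compared between tissues as amounts of binding. With no replicates there is no error of a value and no test.

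Integrins are pairs of an alpha and a beta subunit that bind matrix proteins outside the cell and link them to the actin cytoskeleton, and the alpha subunit largely sets which matrix protein is bound. Classical cadherins of types I and II join like cells in a calcium-dependent way through catenins, while protocadherins give weaker adhesion and are best known from the nervous system. In the tooth germ, a basement membrane, to which integrin receptors bind, separates the epithelium, which makes enamel, from the mesenchyme, which makes dentin and pulp.

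Sp6 intervals were listed for 11 of the 60 members in epithelium and 18 in mesenchyme. Those are 18.3% and 30.0% of the families, where 8.92% and 21.4% of all 21631 protein-coding genes had an interval. Both tissues had an interval at 9 members, which is 15.0% of the families against 8.24% of all genes. These 9 were Itga2, Itga4, Itgav, Itgb5, Cdh6, Cdh13, Cdh23, Pcdh9 and Pcdh18. Itga1 and Cdh20 had an interval in epithelium only. Itga2b, Itga9, Itga11, Itgae, Itgb8, Cdh7, Cdh11, Pcdh1 and Pcdh15 had one in mesenchyme only. Of the 6 genes left out by the rule, 2 had an interval in epithelium and 5 in mesenchyme.

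By family, intervals were listed for 8 of 17 Itga genes, 2 of 11 Itgb genes, 6 of 20 Cdh genes and 4 of 12 Pcdh genes in either tissue, beside 22.0% of all protein-coding genes. The members held 14 epithelium intervals and 31 mesenchyme intervals. None of the 45 touched an input interval, and of all annotated intervals only 0.42% in epithelium and 0.139% in mesenchyme did. Nothing particular to the members is read from this. The mesenchyme has more intervals in all. With its list reduced to the 2381 annotated intervals of highest peak value, as many as epithelium had, 8 members had a mesenchyme interval. The share of all genes under that reduced list is not given here, so this count has no background.

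These genes are long, and long genes carry more intervals. The median length of the 60 members was 69 kb, against 17.3 kb for all protein-coding genes. Set beside genes of like length, the members stood closer to the background. Of the 13 members of 100 to 300 kb, 4 had an epithelium interval (26.4% of all such genes had one) and 6 a mesenchyme interval (52.3%). Among the 19 members of 30 to 100 kb, 3 had one in epithelium (12.3%) and 5 in mesenchyme (29.3%). Of the 15 members of 10 to 30 kb, 1 had an epithelium interval (5.44%) and 3 a mesenchyme interval (16.3%), and the 2 members under 10 kb had none (3.06% and 9.69%). The longest members were below the background. Of the 11 members of 300 kb or longer, 3 had an epithelium interval and 4 a mesenchyme interval, where 41.1% and 66.6% of the 557 genes of that length had one. The 7 with none in either tissue were Cdh4, Cdh8, Cdh12, Cdh18, Pcdh7, Pcdh11x and Itgbl1, of 319 to 1150 kb. Of all genes of that length 67.0% had an interval in either tissue. No test was made of these counts, and nothing particular to the families is read from them.

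**Figure D1:**
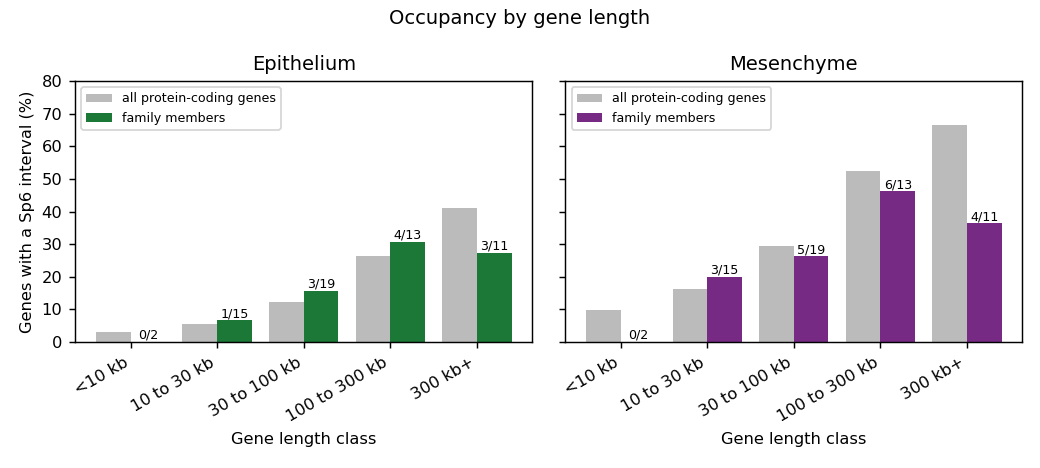
Share of genes with at least 1 Sp6 interval (%, vertical axis) in 5 classes of gene length (horizontal axis), for all protein-coding genes (grey) and for the 60 family members (coloured, with the number occupied over the number in the class). In the class of 300 kb or longer, 3 of 11 members in epithelium and 4 of 11 in mesenchyme had an interval, below the grey bars of 41.1% and 66.6%.

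Close to the gene start, intervals were listed for few members. Within 5 kb of a start, 4 members had an epithelium interval (6.67%, beside 2.02% of all protein-coding genes) and 5 had a mesenchyme interval (8.33%, beside 6.76%). Itgav, Cdh23 and Pcdh18 had one in both tissues, Itga2 in epithelium, and Itgb8 and Pcdh9 in mesenchyme. Intervals at 3 of these starts reached into the window from 250 bases before to 50 bases after the start. They were those of Itgav, in both tissues, of Pcdh18, in mesenchyme, and of Itga2, in epithelium, the last by 2 bases. The promoters of Itgav and Pcdh18 are shown because these intervals covered from 136 to all 300 bases of the window, and because SP family factors are known to bind GC and CACC boxes. Capitals mark the GC box GGGCGG and the CACC box GGGTGG on either strand (CCGCCC and CCACCC on the other strand). Each sequence runs 5′ to 3′ from 250 bases before to 50 bases after the RefSeq start, on GRCm38.p6, at chr2:83724147-83724446, plus strand, for Itgav and chr3:49757267-49757566, minus strand, for Pcdh18.
Itgav: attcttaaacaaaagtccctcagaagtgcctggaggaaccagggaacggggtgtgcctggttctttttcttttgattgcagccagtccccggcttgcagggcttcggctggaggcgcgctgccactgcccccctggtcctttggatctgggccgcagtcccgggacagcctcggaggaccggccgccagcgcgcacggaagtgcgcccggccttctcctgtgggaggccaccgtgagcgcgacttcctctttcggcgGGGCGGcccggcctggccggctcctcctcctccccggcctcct
Pcdh18: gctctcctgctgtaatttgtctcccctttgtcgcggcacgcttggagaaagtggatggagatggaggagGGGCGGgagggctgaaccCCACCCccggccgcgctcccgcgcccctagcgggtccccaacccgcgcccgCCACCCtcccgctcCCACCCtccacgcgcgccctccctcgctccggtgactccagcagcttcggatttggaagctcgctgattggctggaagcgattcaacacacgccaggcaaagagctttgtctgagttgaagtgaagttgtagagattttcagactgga

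The Itgav sequence held 1 GC box, from base 7 after the start, and no CACC box. The Pcdh18 sequence held 1 GC box, from 181 bases before the start, and 3 CACC boxes, from 163, 112 and 98 bases before it. No motif overlapped another, and neither sequence held the homeobox core TAATTA. Of 27025 RefSeq promoters of the same length, 35.9% held a GC box, 30.9% a CACC box and 5.31% TAATTA. Promoters of 16 of the 20 members with an interval matched by symbol, and 6 of the 16 held a GC box and 6 a CACC box (37.5% each). Both printed promoters were richer in G and C (67.3% and 63%) than the median promoter (52.7%). Counted from the start that the deposited tables imply on mm9, the mesenchyme interval covered all 300 bases of such a window at Itgav, and the epithelium interval 136. At Pcdh18 the mesenchyme interval covered 138. The Itgav GC box lay inside the mesenchyme interval and outside the epithelium interval. At Pcdh18 the GC box and the CACC box at 163 bases lay inside the interval, and the CACC boxes at 112 and 98 bases lay outside it. The box at 112 bases lay directly against the interval's edge, so a small shift of the start would change its side. The RefSeq promoter of Itga2 held a GC box from base 2 after the start and a CACC box from 234 bases before it, both outside its intervals. These places assume that the listed and the RefSeq starts coincide. Whether the listed and the RefSeq starts are the same base could not be checked. The motifs describe letters, not binding sites.

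Among the collagen-binding alpha subunits (Itga1, Itga2, Itga10 and Itga11), 3 of 4 had an interval in either tissue, beside 22.0% of all protein-coding genes. The 3 genes were of 99 to 144 kb, and Itga10, with none, was of 18.9 kb. The part of length was not tested. Itga2 had the highest peak value of any member in either tissue. Itga2 encodes the alpha subunit of the main epithelial and platelet collagen receptor. Inside the gene, 39.8 kb from its start, the peak value was 61 in epithelium (chr13:115682143-115682777) and 117 in mesenchyme (chr13:115682048-115682846). These are the 91.8th and 96.2nd percentiles of their libraries. The other Itga2 intervals were not at the same places. Epithelium had a weak one 535 bp upstream of the start (chr13:115722498-115723053, peak value 15), at the 2.98th percentile. Mesenchyme had 39 at 23.5 kb inside the gene and 31 at 6.1 kb upstream. The epithelium interval near the start and the nearest mesenchyme interval lay 4.97 kb apart.

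Itga1 encodes the other widely expressed collagen-receptor alpha subunit and lies next to Itga2, whose start faces the end of Itga1. Its 1 interval was found in epithelium, beyond the gene's end, 144716 bp away from the start (chr13:115747327-115747705), with a peak value of 19. The same interval lay 25.3 kb upstream of the Itga2 start. Mesenchyme had no interval within 18.6 kb of it. Itga11, a collagen-receptor subunit of fibroblasts and other mesenchymal cells, had 1 mesenchyme interval inside the gene at 35.7 kb, with a peak value of 38, and none in epithelium. No interval was listed for Itga10, the collagen-receptor subunit of cartilage.

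**Figure D2:**
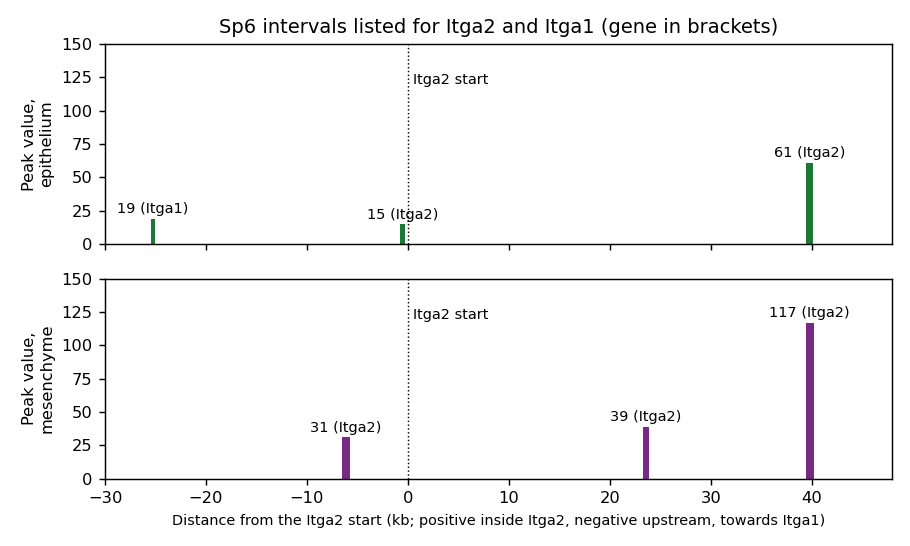
Peak value (vertical axis) of the intervals listed for Itga2 and Itga1 in epithelium (upper panel) and mesenchyme (lower panel), by distance from the Itga2 start in kb (horizontal axis). Each bar is 1 interval, as wide as the interval. The tissues share the interval at 39.8 kb, with peak values of 61 and 117, and the other 4 intervals were each found in 1 tissue.

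The integrins that bind the RGD motif of fibronectin and vitronectin were occupied in part. Itgav, which pairs with several beta subunits and helps to activate latent TGF-beta, had 1 interval in each tissue, at its start and on a CpG island. The peak value was 34 in epithelium, 480 bp upstream (chr2:83563920-83564558), and 68 in mesenchyme, 448 bp upstream (chr2:83563841-83564732). They ranked at the 68.1st and 86.2nd percentiles. Itgav was the only member whose listed intervals in both tissues were confined to the 1 kb around the start. Itga2b, the platelet fibrinogen receptor subunit, was listed for 1 mesenchyme interval with a peak value of 26, downstream of the gene at 21.9 kb from its start. That interval lies on a CpG island 175 bp upstream of the neighbouring gene BC025575. Itga5 and Itga8, the other RGD-binding alpha subunits, had none.

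Among the beta subunits, Itgb5 and Itgb8 had intervals. Itgb8 had 1, in mesenchyme alone, 2381 bp inside the gene (chr12:120474062-120474751), with a peak value of 73 at the 88.2nd percentile. The nearest epithelium interval was 136 kb away. Itgb5 had shared peak values of 21 in epithelium (chr16:33871486-33871824) and 33 in mesenchyme (chr16:33871423-33872026), about 41.8 kb inside the gene. Mesenchyme had 2 more at Itgb5, of 31 at 26.4 kb and of 22 past the gene at 119 kb. The last is also listed for Umps. Itgb1, the beta subunit of most matrix-binding integrins, had no listed interval, and neither had Itgb2, Itgb3 or Itgb7.

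Itga4 and Itga9, related subunits that bind fibronectin, VCAM1 and tenascin-C between them, both had intervals in mesenchyme. Itga4 had 2 in each tissue at the same places inside the gene. At about 22.5 kb the peak value was 24 in epithelium (chr2:79117867-79118314) and 35 in mesenchyme (chr2:79117712-79118505). At 54.9 kb it was 23 and 31. Itga9 had mesenchyme peak values of 33 at 10.6 kb and 23 at 171 kb inside the gene, and none in epithelium. The laminin-binding subunits Itga3 and Itga7 had no interval.

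Of the 5 leukocyte alpha subunits, 1 had an interval, beside 22.0% of all protein-coding genes. This was Itgae, whose product binds E-cadherin on epithelial cells, with a mesenchyme peak value of 35 inside the gene at 38.1 kb. The interval is also listed for Gsg2, 9.62 kb from that gene's start. Itgad, Itgal, Itgam and Itgax had none. The 5 genes that match the names without being matrix-binding integrin subunits (Itgb1bp1, Itgb1bp2, Itgb2l, Itgb3bp and Itgbl1) also had none.

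**Figure D3:**
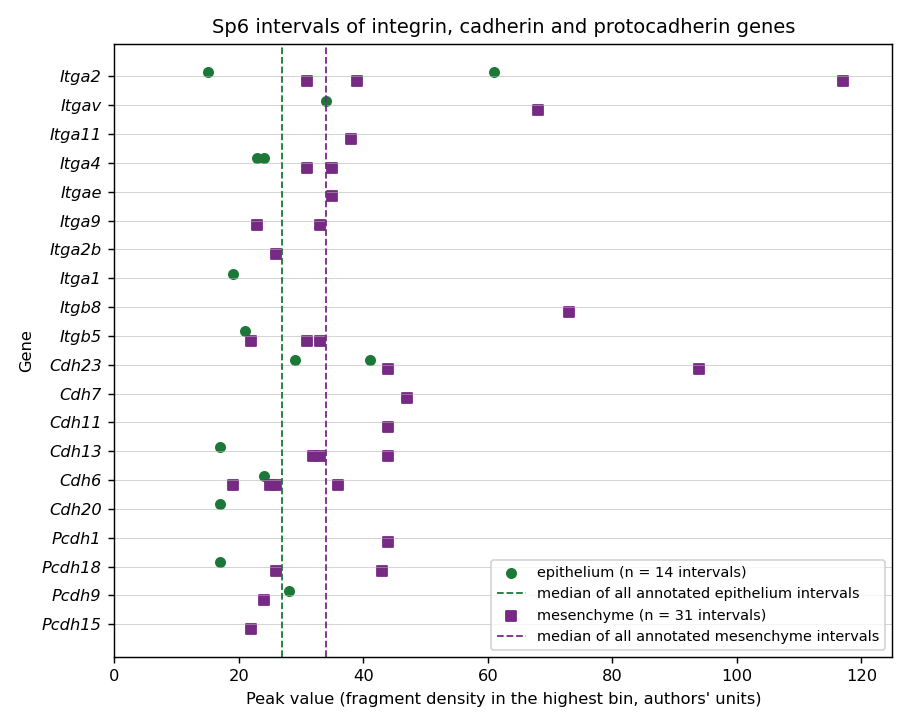
Peak value (horizontal axis) of every Sp6 interval listed for the 20 members (vertical axis, by family), with 14 intervals in epithelium (green circles) and 31 in mesenchyme (purple squares). Dashed lines are the medians of all annotated intervals, 27 in epithelium and 34 in mesenchyme. Itga2, Cdh23, Itgb8 and Itgav hold the highest values.

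Type II cadherins had intervals at 4 of 13 genes, beside 22.0% of all protein-coding genes. By tissue, 2 had one in epithelium and 3 in mesenchyme, beside 8.92% and 21.4% of all genes. Many of these cadherin genes are long, and of all genes of 100 to 300 kb 26.4% and 52.3% had one. Cdh6, known as K-cadherin from the kidney, had the most intervals of any member in 1 tissue, with 4 in mesenchyme. They lay inside the gene, with peak values of 25 at 8.99 kb, 19 at 25.5 kb, 36 at 55.7 kb and 26 at 67.8 kb. The epithelium had 1 Cdh6 interval, at the last of these places (chr15:13035293-13035816), with a peak value of 24. The mesenchyme interval there (chr15:13035292-13035925) thus had nearly the same deposited value. Cdh11, the osteoblast cadherin of mesenchymal cells, had 1 mesenchyme interval 128 kb inside the gene (chr8:105180316-105180972), with a peak value of 44, and none in epithelium.

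Cdh7 and Cdh20 are type II cadherin genes of chromosome 1, known mainly from the nervous system. Each had 1 interval past its end. At Cdh7 it was in mesenchyme, 161 kb from the start (chr1:112041087-112041617), with a peak value of 47. At Cdh20 it was in epithelium, 229 kb from the start (chr1:106893975-106894380), with a peak value of 17 at the 7.94th percentile. No interval was listed for Cdh5, the cadherin of endothelium, or for Cdh8, Cdh9, Cdh10, Cdh12, Cdh18, Cdh19, Cdh22 or Cdh24. The type I cadherins Cdh4 and Cdh15 had none either.

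Of the other cadherins, Cdh23 had the highest values. With Pcdh15 it forms the tip links of inner ear hair cells. Its interval at 2490 bp upstream reached 41 in epithelium (chr10:60161596-60162096) and 94 in mesenchyme (chr10:60161372-60161999), at the 78.8th and 93.4th percentiles, with the same peak centre in both. A second shared interval, 96.5 kb inside the gene, had 29 and 44. At Pcdh15 the mesenchyme had 1 interval of low value, 22, at 727 kb inside the gene. Cdh13 encodes T-cadherin, which is held in the membrane by a lipid anchor and binds adiponectin. It was occupied in both tissues but at different places. Epithelium had 17 at 57.4 kb, and mesenchyme had 33 at 184 kb, 44 at 547 kb and 32 at 553 kb, all inside the gene. The epithelium interval lay 126 kb from the nearest mesenchyme interval. Cdh16, Cdh17 and Cdh26 had none.

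Protocadherin intervals were listed for 4 of 12 genes, beside 22.0% of all protein-coding genes. Pcdh18 had 1 shared interval about 4.4 kb inside the gene, with peak values of 17 in epithelium (chr3:49556533-49557092) and 43 in mesenchyme (chr3:49556443-49557137). Mesenchyme also had 26 at 365 bp upstream of the start (chr3:49561316-49561926), the interval over the promoter printed above. Pcdh9, like Cdh13, had intervals at different places, of 28 in epithelium at 145 kb (chr14:94142356-94142814) and 24 in mesenchyme at 1455 bp (chr14:94286177-94286766). They lay 143 kb apart. Pcdh1, an adhesion molecule of airway epithelium, had 1 mesenchyme interval past the gene, 14.9 kb from its start (chr18:38354225-38354874), with a peak value of 44. Position words here are those of the deposited table: RefSeq gives Pcdh1 a length of 26.1 kb, more than the distance of this interval from the listed start. The same holds for Cdh7 (163 kb in RefSeq) and Itgb5 (120 kb), whose intervals are listed past the gene at 161 and 119 kb. Pcdh7, Pcdh8, Pcdh10, Pcdh11x, Pcdh12, Pcdh17, Pcdh19 and Pcdh20 had no listed interval.

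**Figure D4:**
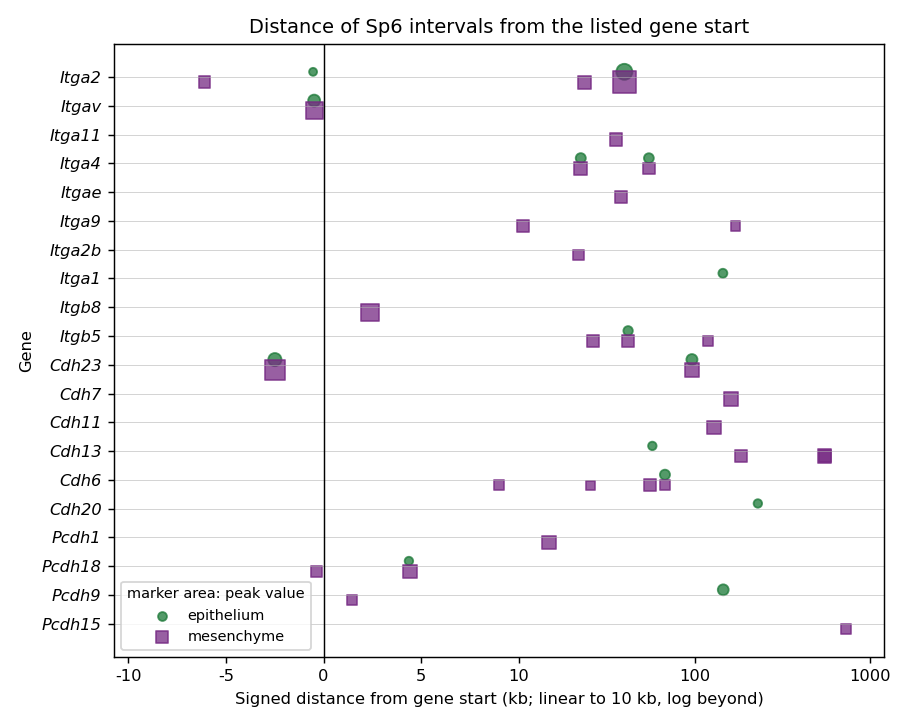
Signed distance of each interval from the listed start of its gene in kb (horizontal axis, linear to 10 kb and logarithmic beyond) for the 20 members (vertical axis), with marker area in proportion to peak value. Most intervals lie more than 10 kb inside the genes, and the intervals within 5 kb of the start are all those of Itgav, Pcdh18 and Itgb8 and some of those of Cdh23, Itga2 and Pcdh9.

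In mesenchyme 23 of 31 (74.2%, Wilson 95% interval 56.8 to 86.3%) lay inside the gene body, beside 76% of all annotated intervals. In epithelium 9 of 14 did (64.3%, 38.8 to 83.7%), beside 77.1%. The median distance to the start was 48.4 kb in epithelium and 35.7 kb in mesenchyme, against 25.7 and 24.1 kb for all. The 2 sides are not measured alike. For members, position and distance refer to the member gene. For all annotated intervals they refer to any listed gene and to the nearest listed start. More than 1 gene was listed for 14.6% of all epithelium and 16.5% of all mesenchyme intervals. The members are also longer genes, and the part of length was not tested. CpG islands held 1 epithelium and 2 mesenchyme intervals (7.14% and 6.45%), beside 4.2% and 8.45% of all annotated intervals. The median peak value was 23.5 in epithelium (lowest 15, highest 61) and 33 in mesenchyme (19 to 117), beside 27 and 34 for all. The median percentiles were 34.9 and 47.4, beside 48.6 and 49.7 for all. Within 50 kb of the start lay 7 of 14 epithelium intervals (50%, 26.8 to 73.2%), beside 64.3% of all, and 19 of 31 in mesenchyme (61.3%, 43.8 to 76.3%), beside 64.6%. Of the epithelium intervals 5 of 14 were above the 50th percentile of their library, and of the mesenchyme intervals 15 of 31.

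Of the members' epithelium intervals, 9 of 14 overlapped a mesenchyme interval (64.3%, 38.8 to 83.7%), beside 87.4% of all annotated epithelium intervals. The Wilson intervals cover counting error only, and no test of this difference was made. Strength moved with it. Of the 5 members' intervals with peak values under 21, the lower quartile of the library, 1 was shared (20%, 3.62 to 62.4%), beside 66.3% of all such intervals. At or above 21, 8 of 9 were (88.9%, 56.5 to 98%), beside 93.1%. The 1 exception at or above the quartile was Pcdh9. The part of peak value in the difference was not tested. In mesenchyme 9 of 31 were shared (29%, 16.1 to 46.6%), beside 28.7%.

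The 9 shared pairs belonged to Itga2, Itga4 (2 pairs), Itgav, Itgb5, Cdh6, Cdh23 (2 pairs) and Pcdh18. Their peak centres lay at most 64 bp apart, with a median of 32 bp. In 9 of 9 pairs the mesenchyme had the higher deposited value, as in 1956 of 2083 pairs in all. The log2 ratio of epithelium to mesenchyme ran from −1.34 at Pcdh18 to −0.12 at Cdh6. The median was −0.65, beside −0.97 for all pairs (interquartile range −1.35 to −0.58). Cdh6 stood at the 91.8th percentile of all pairs and Pcdh18 at the 25.6th. Since scaling between the libraries is not stated, the ratio describes deposited values and does not measure binding.

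**Figure D5:**
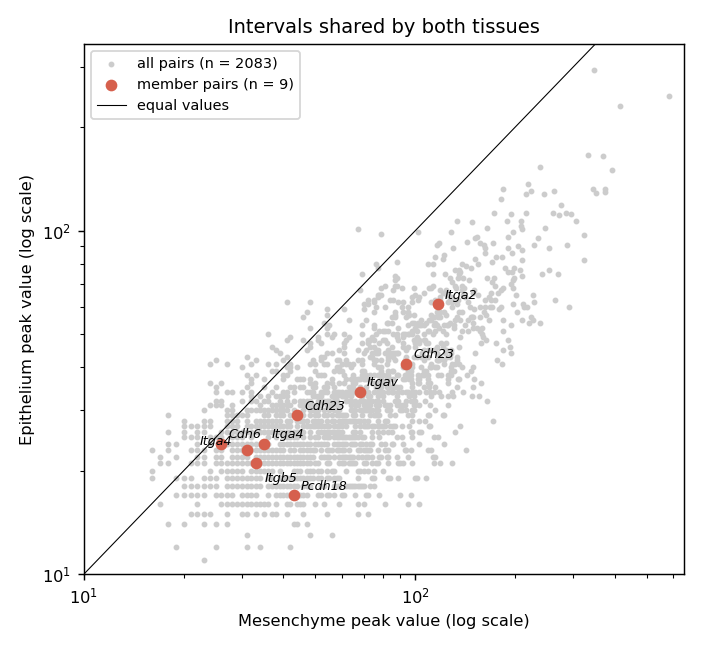
Epithelium peak value (vertical axis) against mesenchyme peak value (horizontal axis), both on log scales, for all 2083 pairs of overlapping annotated intervals (grey) and the 9 pairs of members (red, with gene names). All 9 lie below the line of equal values, with Itga2 the highest at 61 and 117 and Cdh6 nearest to the line at 24 and 26.

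Genes that work with these families were counted in the same way. Of 40 genes of the integrin adhesion complex, which couples integrins to actin, 8 had an epithelium interval (20%, beside 8.92% of all genes) and 15 a mesenchyme interval (37.5%, beside 21.4%). Their median length was 66.6 kb, and of all genes of 30 to 100 kb 12.3% and 29.3% had one. Some are longer, with intervals 268 kb inside Tln2 and 411 kb inside Dock1, and longer classes had higher shares. In this list Lpp, a zyxin-related adaptor, had highest peak values of 57 in epithelium and 87 in mesenchyme, and Ptk2, the focal adhesion kinase, had 31 and 78. Tln2, a talin that activates integrins, had 29 and 77, and Vcl (vinculin) 24 and 65. Dock1 had 42 and 134, the highest mesenchyme value of the list. All of these lay inside the genes. Of 37 integrin ligands and matrix partners, 4 had an interval in epithelium (10.8%) and 18 in mesenchyme (48.6%). The 4 were Dmp1, Ltbp1, Tgfb1 and Tnr. The median length of this list was 31.8 kb, also within 30 to 100 kb. It too holds longer genes, with a mesenchyme interval 435 kb inside Lama2. Fn1, which encodes fibronectin, and Npnt, the nephronectin ligand of the Itga8 product, had intervals in mesenchyme alone, with highest values of 39 and 52.

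Catenins and other cadherin partners had an interval at 9 of 20 genes in epithelium (45%) and 13 in mesenchyme (65%), and their median length of 150 kb was greater than that of the other lists. Of all genes of 100 to 300 kb, 26.4% and 52.3% had one. The list also holds longer genes, with intervals 979 kb inside Ctnna2, 1303 kb inside Magi2 and 683 kb inside Ptprm. Of all genes of 300 kb or longer, 41.1% and 66.6% had one. The class of the median is thus only a partial background, and the part of length was not tested. Ctnna2, an alpha-catenin gene, had the highest peak values of the list, 150 in epithelium and 394 in mesenchyme. Ptprk, a receptor phosphatase of cell contacts, had highest peak values of 69 and 87, and Pkp4 had 34 and 72. The FAT, dachsous, CELSR and calsyntenin group had an interval at 5 of 13 genes in epithelium (38.5%) and 10 in mesenchyme (76.9%), beside 8.92% and 21.4% of all genes. Their median length was 86.9 kb, and of all genes of 30 to 100 kb 12.3% and 29.3% had one. Some are longer, with intervals 205 kb inside Clstn2 and 301 kb inside Fat3, and longer classes had higher shares. Celsr1, a planar polarity cadherin, had 44 and 152 at 59.8 kb inside the gene. Clstn2, a calsyntenin gene, had 54 and 102. Fjx1, a relative of the fly four-jointed gene, had 26 and 104 past its end. Of 57 clustered protocadherin genes (Pcdha, Pcdhb and Pcdhg) none was listed in either tissue, beside 22.0% of all genes. Their median length in RefSeq was 90.3 kb, and of all genes of 30 to 100 kb 12.3% and 29.3% had one. These genes lie together in a cluster on chromosome 18, so they are not 57 separate counts. Nothing is read from their absence.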

How the data were processed

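Per the submitters' processing notes, intervals were called with MACS 1.3.7.1 on mm9. The aligner, thresholds, scaling and use of inputs were not given in the sources used here. Each of the 4 libraries has a deposited interval list, and nothing was pooled across libraries. The deposited gene tables hold signal values (peak value and average value per interval), distances in bp, CpG islands and gene names, per the file headers. Genes are listed from 10 kb upstream of the start, so an interval farther upstream is not credited to a gene, and a member without a listed interval is absent only in that sense. Coordinates follow the deposited mm9 positions and count from 1. Names were matched to 21631 RefSeq protein-coding genes (GRCm38.p6, autosomes and X), by symbol and then synonym, with 1930 of 2239 epithelium names and 4627 of 5391 mesenchyme names matched. RefSeq lengths are from GRCm38.p6. The overlap between tissues needed at least 1 bp. Groups were taken from the sample titles. Members, lists and motifs were chosen with earlier results of these data known. Each member with an interval is named. Of the partner genes with an epithelium interval, some of each list are named, chosen after their values were seen. Fn1 and Npnt were also chosen after their values were seen. Shares carry Wilson 95% intervals for counting error only. With 1 library per group no test between tissues was made. Alternatives were stricter lists, positions and overlaps. Overlap and percentile functions were tested on simulated data. Python 3.11.15, pandas 2.3.3 and SciPy 1.17.1 were used.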

Additional observations from a re-analysis of the deposited data

How the results depend on the processing

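Counts of members with an interval fell under stricter rules, which keep fewer intervals by construction. Shares of all genes under these rules are given only for the 5 kb window in each tissue. In the top 50% of intervals by peak value, 4 members had an epithelium interval and 3 had one in both tissues. Within 5 kb of the start the counts were 4 in epithelium, 5 in mesenchyme and 3 in both, and within 50 kb the epithelium count was 6. With the mesenchyme list reduced to as many intervals as epithelium had, 8 members had a mesenchyme interval and 4 had one in both. The other 33 of 41 alternative values were within 1.5 times of the reported count or within the error or spread of the reported value. Of these, the median mesenchyme percentile went from 47.4 to 38.8 with average values and to 62.3 with the highest interval of each member, and the median log2 ratio to −0.48 with average values. Without members whose every interval is also listed for another gene, 16 had a mesenchyme interval. No paired analysis was possible because each group has 1 library. Leaving out a library was not possible for the same reason. Depth is unknown, so a missing interval does not show that a gene is not bound.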

Other observations

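Some intervals lay near members without being credited to them. Of 17 members with a derived strand and start, 5 had an epithelium interval and 5 a mesenchyme interval between 10 and 100 kb upstream of the start. The intervals numbered 5 and 7, of which 3 and 5 were listed for no gene. The share of all genes with an interval in that range is not given here. Nothing particular to the members is read from these counts. Upstream of Pcdh18 both tissues had an unlisted interval, 74 kb from the start in epithelium (chr3:49634847-49635465) and 73.9 kb in mesenchyme (chr3:49634838-49635418), and mesenchyme had another at 75 kb. Upstream of Itga2b both had an unlisted interval about 29.1 kb from the start, and Itga11, which had no listed epithelium interval, had an unlisted one 69.3 kb upstream in epithelium (chr9:62456165-62456667). Itga4 and Pcdh15 each had an unlisted mesenchyme interval, at 51.7 and 43.4 kb. Which gene such an interval bears on was not tested.

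The clustered protocadherins lie next to Diaph1 in RefSeq. The first mesenchyme interval listed for that gene, under its older name Diap1, was preceded by 1359 kb of chromosome 18 without any mesenchyme interval (chr18:36728721-38088126 on mm9). Of 11416 gaps between neighbouring mesenchyme intervals, 260 were longer, and the median gap was 85.1 kb. In epithelium the gap there was 1767 kb, with 343 of 3791 gaps longer.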
